A study of Mus musculus with 16 samples.

Results

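The cytosolic sulfotransferases of the mouse liver were followed from birth to week 4 in livers labelled Mettl3 cKO or Control. Mettl3 is the methyltransferase that places N6-methyladenosine on mRNA. The group held 10 genes of the 53379 in the expression table, namely Sult1a1, Sult1b1, Sult1c2, Sult1d1, Sult1e1, Sult2a1, Sult2a2, Sult2a8, Sult3a1 and Sult5a1. They were taken by gene symbol, and were chosen by their values in these same libraries, so that their levels and differences are given as a description, without a test. The table named 27 Sult genes and pseudogenes in all, and 2 of the 11 further protein-coding Sult genes passed the filter on low values and could be tested.

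Livers came from Mettl3 cKO mice (Mettl3 flox/flox crossed with mice carrying a Cre transgene under the albumin enhancer and promoter, which acts in hepatocytes) and from Control mice, which the labels give as WT, on a C57BL/6J background. The ages were day 1 (P1) and weeks 1, 2 and 4 after birth (W1, W2 and W4). Each of the 8 groups had 2 libraries, which made 16 in all. According to the methods these were 2 individuals per time point. Values are FPKM, fragments scaled to transcript length and library size, and the depth estimated from the steps between low values was 10.8 to 15.5 M reads per library. Livers of 8 weeks, which the study also lists, were not analysed here.

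Sulfotransferases move a sulfonate group from the donor PAPS (3'-phosphoadenosine 5'-phosphosulfate) onto hormones, bile acids, drugs and other small molecules, which makes them more soluble in water and easier to export. Sult1 enzymes act mainly on phenols, among them oestrogens, catecholamines and thyroid hormones, and Sult2 enzymes on the hydroxyl groups of steroids and bile acids. In the rodent liver several of them are known to differ between the sexes and to change during growth, and the receptors CAR (Nr1i3), PXR (Nr1i2) and FXR (Nr1h4) are known to regulate Sult2a genes.

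Some features of the libraries touch these results. Mettl3 itself stood at 6.72 to 11.3 FPKM in the libraries labelled cKO and at 4.94 to 8.12 FPKM in Control. At each age both libraries labelled cKO stood above both Control libraries. Only a part of the gene is floxed, so that this value does not check the labels, and directions below are those of the libraries labelled cKO. By Xist and Eif2s3y, both W1 cKO libraries were female and both W1 Control libraries male, so that sex and genotype cannot be told apart at W1. Control replicate 1 was the male library of P1, and all W2 and W4 libraries were male, so that 11 libraries were male and 5 female. Both P1 cKO libraries were female and both W4 cKO libraries male. In W4 minus P1 of cKO, sex and age therefore cannot be told apart. At W2 the share of FPKM that fell on genes of the mitochondrial genome was 25.2 and 43.8% in cKO against 58.1 and 59.0% in Control. On the deposited scale the median difference (cKO minus Control, log2) of all 14913 genes tested was -0.03 at P1, 0.07 at W1, 0.22 at W2 and 0.44 at W4, and each difference below is to be read against that shift.

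The Sult2a genes lie together on chromosome 7. In mm10, Sult2a1 (ENSMUSG00000078798) spans chr7:13796246-13837409 on the minus strand, Sult2a2 (ENSMUSG00000070811) spans chr7:13733505-13779636 on the plus strand and Sult2a8 (ENSMUSG00000030378) spans chr7:14410686-14446769 on the minus strand. In GENCODE M21 the 582 nt of the annotated Sult2a2 coding sequence differed from Sult2a1 at 12 bases (97.9% identity), and 6.88% of the 100-nt windows of the Sult2a1 coding sequence, 13.3% of those of Sult2a2, occurred identically in another Sult gene. Sult2a8 was 69.1% identical to Sult2a1 and shared no 100-nt window with another Sult gene. Reads of Sult2a1 and Sult2a2 can therefore be exchanged between the copies, and the sum of Sult2a1, Sult2a2 and Sult2a8 is given beside each of them. The stretch below, bases 170 to 259 of each coding sequence, is shown because it holds 4 of the 12 differences, given in capitals.
Sult2a1: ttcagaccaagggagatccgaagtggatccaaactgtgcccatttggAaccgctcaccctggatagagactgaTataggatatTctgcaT
Sult2a2: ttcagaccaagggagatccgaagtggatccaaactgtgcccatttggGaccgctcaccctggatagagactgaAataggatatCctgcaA

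Promoter windows (250 bases before to 50 after the start, RefSeq, GRCm38.p6) were given for 8 of the 10 genes, and not for Sult2a1 and Sult2a2. Those of the close copies Sult2a4, Sult2a5 and Sult2a6 each held TCATGAACT, read on both strands, which contains the nuclear receptor core AGTTCA on the other strand and was present in 71 of 32851 windows (0.216%). The stretches are shown because Sult2a5 and Sult2a6 are the genes outside the group that are tested below, with the match in capitals. In Sult2a5 (chr7:13623773-13623841, plus strand) the match lay 164 to 156 bases before the start, in Sult2a6 (chr7:14255040-14255108, minus strand) 208 to 200 bases before it, and in Sult2a4 (chr7:13989793-13989838, minus strand) 243 to 235 bases before it.
Sult2a5: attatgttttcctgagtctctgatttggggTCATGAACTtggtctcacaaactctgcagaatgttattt
Sult2a6: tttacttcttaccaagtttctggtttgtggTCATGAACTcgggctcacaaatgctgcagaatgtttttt
Sult2a4: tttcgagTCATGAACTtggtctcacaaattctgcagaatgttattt
The windows of the 8 genes did not hold these letters. Neither did that of Sult2a3, a close copy that is 93.7% identical to Sult2a1 in its coding sequence. The windows of the close copies resemble each other, so that their matches are not independent. A match is a description of the letters and says nothing about binding in these livers.

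Sult2a transcripts were lower in cKO livers at every age, and the gap widened with age. The Sult2a sum was 17.2 and 29.0 FPKM in cKO against 53.7 and 61.0 FPKM in Control at P1. At W1 it was 29.9 and 15.2 FPKM in cKO against 111 and 183 FPKM in Control, and at W2 it was 15.1 and 13.4 FPKM in cKO against 206 and 295 FPKM in Control. At W4 it was 0.155 and 0.355 FPKM in cKO against 245 and 185 FPKM in Control. The groups did not overlap at any age, and the mean of cKO was 0.403, 0.153, 0.0570 and 0.00119 times that of Control at P1, W1, W2 and W4. On the log2(FPKM + 1) scale the difference was -1.32, -2.68, -4.02 and -7.42 in the same order, with an SE of 0.34 each. In bulk liver, fewer hepatocytes and less RNA per hepatocyte cannot be told apart.

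**Figure D1:**
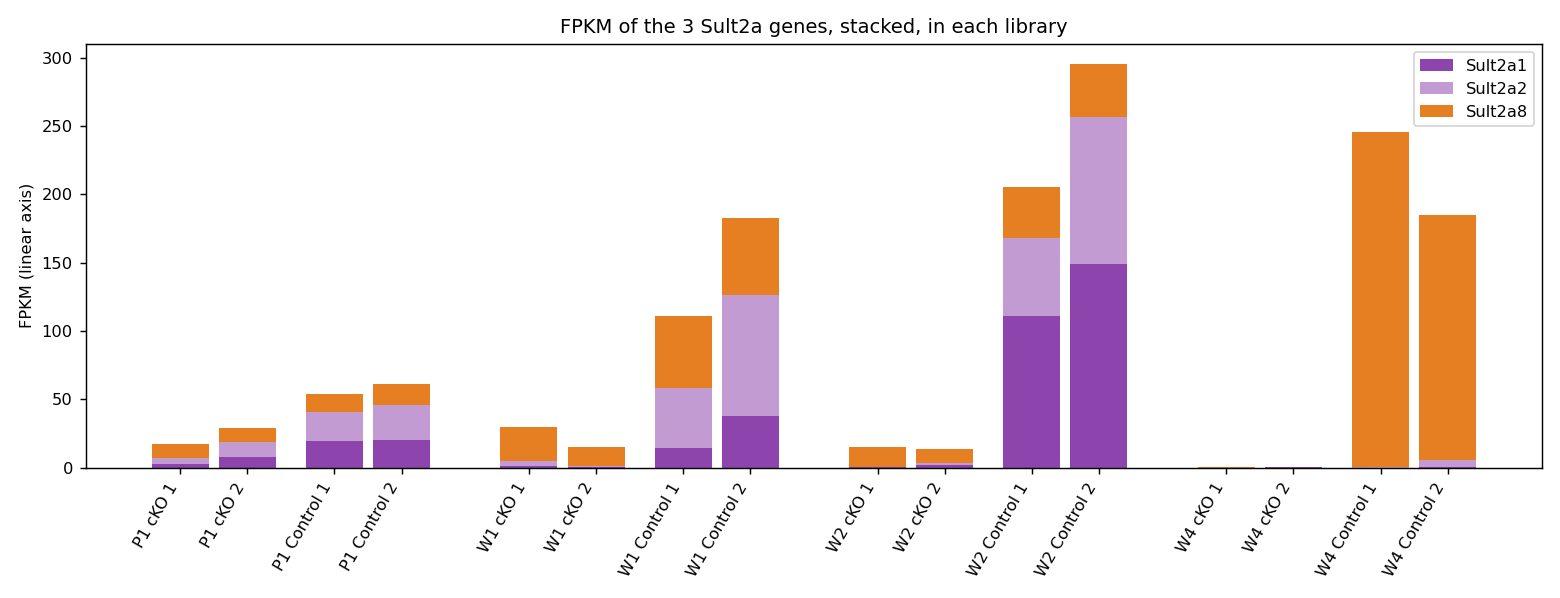
Stacked bars give the FPKM (linear axis) of Sult2a1, Sult2a2 and Sult2a8 in each of the 16 libraries, with cKO left of Control at each age. Control bars reach 295 FPKM at W2 and consist almost wholly of Sult2a8 at W4, while W4 cKO bars are too low to see.

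Sult2a1 and Sult2a2, which sulfonate dehydroepiandrosterone and other hydroxysteroids, made up most of this difference until W2. Sult2a1 stood at 2.46 and 7.62 FPKM in cKO and at 19.3 and 19.999 FPKM in Control at P1. At W1 it stood at 1.52 and 0.6998 FPKM in cKO and at 14.6 and 37.5 FPKM in Control, and at W2 at 0.215 and 1.60 FPKM in cKO and at 111 and 149 FPKM in Control. The W2 values of cKO corresponded to 3 and 23 reads, those of Control to 1354 and 1794 reads. All Control libraries were thus above all cKO libraries at these 3 ages, and the log2 difference was -1.92, -3.57 and -6.19 (SE 0.50 each).

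Sult2a2 ran in parallel to Sult2a1. It stood at 4.61 and 10.8 FPKM in cKO and at 21.8 and 25.8 FPKM in Control at P1, and at 3.14 and 0.385 FPKM in cKO and at 43.8 and 89.0 FPKM in Control at W1. At W2 it stood at 0.493 and 1.72 FPKM in cKO and at 57.7 and 108 FPKM in Control. The log2 difference was -1.60, -4.73 and -5.31 (SE 0.71 each), again without overlap. Over the 16 libraries the log2 values of both genes had a Pearson r of 0.96, which includes any reads exchanged between them.

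By W4 Sult2a1 and Sult2a2 had nearly gone from Control livers as well. In W4 libraries, all male, Sult2a1 was listed at 0 and 0.182 FPKM in cKO and at 0 and 0.772 FPKM in Control, and Sult2a2 at 0 FPKM in both cKO libraries and at 0.104 and 4.93 FPKM in Control. These values rest on 0 to 51 reads per library, so that a difference between genotypes was not detectable for Sult2a1 at W4 at this depth. In the adult mouse liver both genes are known to be higher in females. W4 minus P1 was -2.33 in cKO and -3.95 in Control for Sult2a1 (SE 0.50) and -3.02 in cKO and -3.27 in Control for Sult2a2 (SE 0.71). In cKO these differences carry sex as well as age.

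Sult2a8, known in mice as a bile acid sulfotransferase, took the opposite course in Control. Sult2a8 stood at 10.1 and 10.6 FPKM in cKO and at 12.7 and 15.2 FPKM in Control at P1. At W1 it stood at 25.2 and 14.1 FPKM in cKO and at 52.7 and 56.5 FPKM in Control, and at W2 at 14.4 and 10.1 FPKM in cKO and at 37.3 and 38.4 FPKM in Control. Both cKO libraries were below both Control libraries at each of these ages.

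At W4 Sult2a8 showed the largest difference of the 10 genes. It was at 0.155 and 0.173 FPKM in cKO, that is 5 and 4 reads, and at 245 and 179 FPKM in Control, that is 6838 and 5361 reads. W4 minus P1 was -3.28 in cKO, where sex changed with age, and 3.82 in Control (log2, SE 0.24 each). The gene thus had opposite courses in the libraries of both genotypes. The log2 difference between cKO and Control was -0.39 at P1, -1.48 at W1, -1.57 at W2 and -7.50 at W4 (SE 0.24 each). After median-of-ratios rescaling it was -1.97 at W2 and -7.77 at W4. Sult2a8 held 0.0644 and 0.0582% of the summed FPKM of the 10 genes in W4 cKO, against 40.2 and 29.4% in W4 Control.

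**Figure D2:**
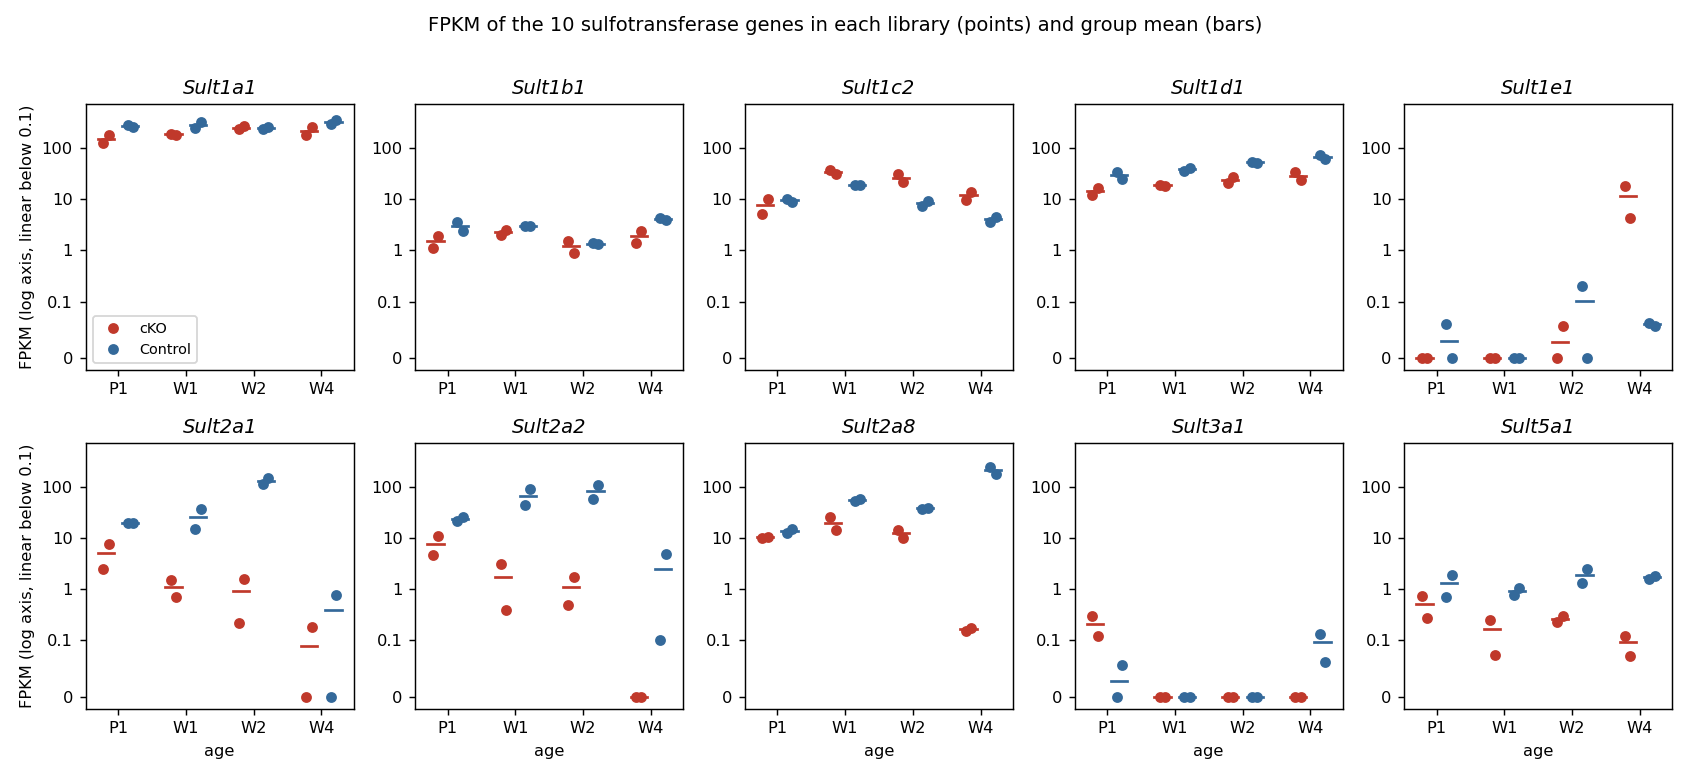
Each panel gives 1 gene, with FPKM (log axis, linear below 0.1 FPKM) for the 2 libraries of each group as points and their mean as a bar, cKO left of Control at each age. Sult2a1, Sult2a2 and Sult2a8 in cKO lie below Control, except for Sult2a1 at W4, where the groups overlap. Sult1c2 in cKO lies above Control from W1 on, and Sult1e1 is above 1 FPKM in the W4 cKO libraries and in no other library.

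The close copies outside the group could be tested. Sult2a5 and Sult2a6, which are 94.9 and 89.7% identical to Sult2a1 in their coding sequences, were 2 of the 11 further Sult genes and the ones that reached 1 FPKM in at least 2 libraries. Sult2a5 stood at 0.309 and 0.682 FPKM in cKO and at 6.84 and 12.01 FPKM in Control at W1, and at 0.838 and 4.13 FPKM in cKO and at 20.96 and 17.9 FPKM in Control at W2. It was lower at both ages, with log2 differences of -2.77 and -2.73 (SE 0.38, adjusted p = 0.00207 and 0.000349 by limma, Benjamini-Hochberg over all genes). Sult2a6 stood at 1.21 and 0.446 FPKM in cKO and at 4.23 and 6.93 FPKM in Control at W1, and at 0.760 and 0.515 FPKM in cKO and at 4.34 and 3.53 FPKM in Control at W2. It was lower too, with log2 differences of -1.85 and -1.59 (SE 0.23, adjusted p = 0.00115 and 0.000402 by limma). In cKO, Sult2a5 reached 1 FPKM only in W2 replicate 2 and Sult2a6 only in W1 replicate 1. Both genes thus passed the filter through Control libraries, where they are high, and their calls are given as a description.

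Neither Sult2a5 nor Sult2a6 was called at P1 or W4, where the differences were 0.00 and -0.32 for Sult2a5 and -0.62 and 0.00 for Sult2a6. The effect of genotype on them depended on age (adjusted p = 0.00156 and 0.00207, joint F test in limma), as it did for 49.5% of all genes tested. With a term for sex the W1 differences were -2.85 and -2.07 and were no longer called (adjusted p = 0.204 and 0.111). Sult2a5 shares 6.35% of its 100-nt coding windows with another Sult gene and Sult2a6 shares 0%. The other 9 further Sult genes did not exceed 0.684 FPKM in any library. Of the pseudogenes Sult2a-ps2 passed the filter. It stood at 0 FPKM in both W2 cKO libraries and at 1.44 and 1.47 FPKM in W2 Control, 7 reads each. It reached 1 FPKM only in these W2 Control libraries and passed the filter through them, so no test is given.

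Sult1a1, the main phenol sulfotransferase of the liver, was the most abundant of the 10 genes in every library. It made up 68.2 to 85.1% of their summed FPKM in cKO and 42.0 to 73.2% in Control. At P1 it stood at 124 and 179 FPKM in cKO and at 280 and 257 FPKM in Control, at W1 at 186 and 178 FPKM in cKO and at 241 and 322 FPKM in Control. At W4 it stood at 178 and 254 FPKM in cKO and at 285 and 353 FPKM in Control. The cKO libraries were below Control at these ages and the log2 difference was -0.85, -0.61 and -0.58 (SE 0.23 each).

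At W2 Sult1a1 overlapped between genotypes, with 231 and 265 FPKM in cKO and 231 and 260 FPKM in Control. The log2 difference there was 0.01 (SE 0.23) on the deposited scale, and the sign turned to -0.38 after median-of-ratios rescaling and to -0.49 with scaling to nuclear genes. The share of mitochondrial transcripts, which differed between the W2 groups, enters this value.

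Sult1d1, which in mice acts on catecholamines, was lower in cKO at every age. It stood at 11.98 and 16.3 FPKM in cKO and at 34.2 and 24.6 FPKM in Control at P1, and at 18.4 and 18.3 FPKM in cKO and at 35.9 and 39.9 FPKM in Control at W1. It stood at 20.8 and 27.0 FPKM in cKO and at 53.8 and 50.5 FPKM in Control at W2, and at 34.0 and 23.3 FPKM in cKO and at 70.9 and 60.2 FPKM in Control at W4. The groups did not overlap at any age, and cKO means were 0.480, 0.485, 0.458 and 0.437 times those of Control. On the deposited scale the log2 difference was -1.0, -1.0, -1.11 and -1.19 in order of age (SE 0.22 each). Median-of-ratios rescaling gave -0.96, -1.12, -1.5 and -1.77, and scaling to nuclear genes gave -0.82, -0.91, -1.60 and -1.13, so that whether the gap widened with age depends on the scale. W4 minus P1 was 0.96 in cKO and 1.14 in Control as deposited, and 0.81 in cKO and 1.62 in Control after median-of-ratios rescaling.

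Sult1c2, a phenol sulfotransferase of the Sult1 family, was higher in cKO after the newborn stage. At P1 it stood at 5.06 and 10.1 FPKM in cKO and at 10.2 and 8.55 FPKM in Control, which overlapped. At W1 it stood at 36.2 and 31.4 FPKM in cKO and at 18.7 and 18.6 FPKM in Control, at W2 at 30.6 and 21.1 FPKM in cKO and at 7.22 and 9.20 FPKM in Control. At W4 it stood at 9.75 and 13.9 FPKM in cKO and at 3.62 and 4.54 FPKM in Control. The cKO means were 1.81, 3.15 and 2.90 times those of Control at W1, W2 and W4, and the log2 difference was 0.82, 1.53 and 1.32 in that order (SE 0.27 each).

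Both genotypes had their Sult1c2 maximum at W1. W4 minus P1 was 0.62 in cKO and -1.03 in Control (SE 0.27 each). The higher level in cKO kept its sign after median-of-ratios rescaling (1.18 at W2 and 0.79 at W4), and scaling to nuclear genes gave 1.07 at W2. Sult1c2 shares no 100-nt coding window with another Sult gene.

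Sult1e1, the oestrogen sulfotransferase, was detected in quantity in W4 cKO livers and hardly elsewhere. It stood at 18.2 and 4.34 FPKM in W4 cKO, or 340 and 58 reads, and at 0.0619 and 0.0576 FPKM in W4 Control, or 1 read each. In the other 12 libraries it rested on 0 to 3 reads. The W4 cKO libraries differed from each other and both lay above every other library, with a log2(FPKM + 1) difference of 3.26 (SE 0.40). Sult1e1 made up 7.56 and 1.46% of the summed FPKM of the 10 genes in W4 cKO, against 0.0101 and 0.00947% in W4 Control.

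The remaining genes were low. Sult1b1, which acts on thyroid hormones, stood at 0.867 to 2.51 FPKM in cKO and at 1.30 to 4.27 FPKM in Control, with log2 differences of -0.67, -0.28, -0.11 and -0.81 in order of age (SE 0.23 each). At W4 its values were 1.40 and 2.42 FPKM in cKO against 4.27 and 3.81 FPKM in Control, and at W2 the groups overlapped. Sult5a1, whose substrate is not well known, stood at 0.0732 to 0.751 FPKM in cKO and at 0.713 to 2.45 FPKM in Control. It overlapped at P1 and was lower in cKO in all libraries from W1 on, and its log2 differences were -0.57, -0.72, -1.16 and -1.31 (SE 0.26 each). Sult3a1, an amine sulfotransferase, did not exceed 5 reads in any library, did not pass the filter on low values and could not be compared.

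**Figure D3:**
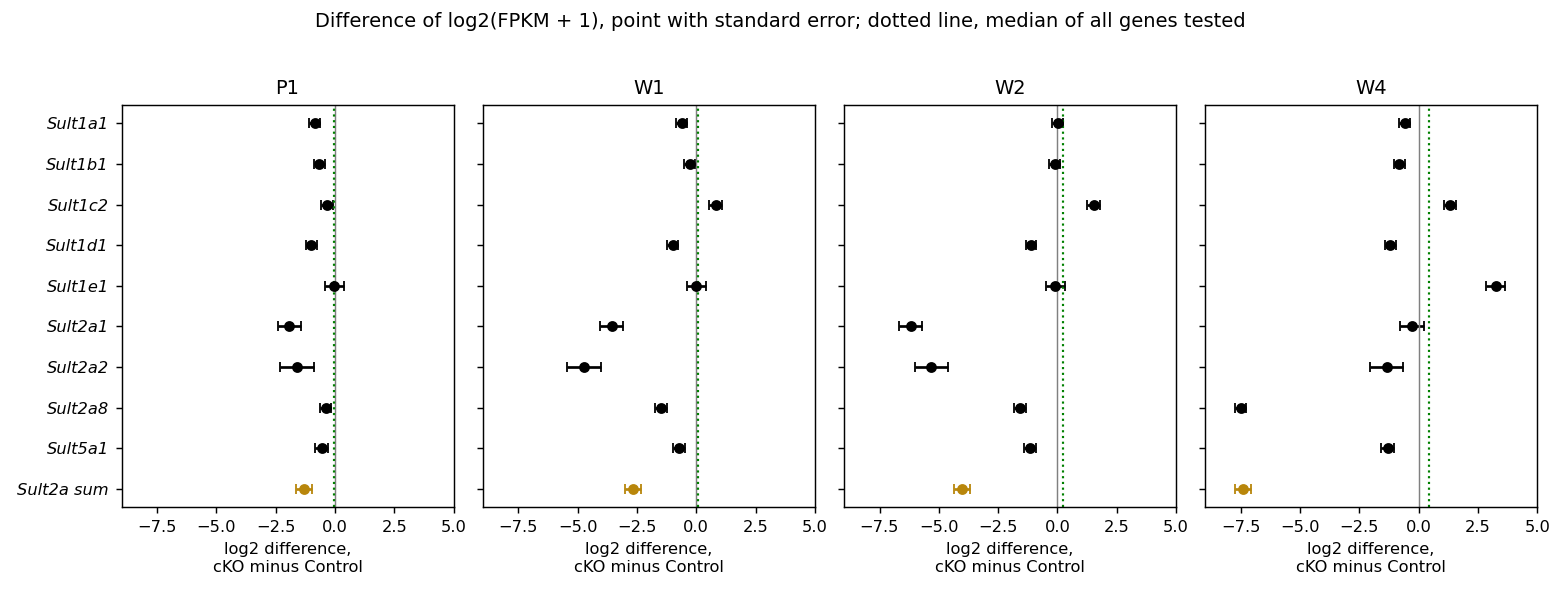
Points give the log2(FPKM + 1) difference, cKO minus Control, of the 9 genes that passed the filter and of the Sult2a sum at each age, with the SE as a bar, and the dotted line marks the median of all genes tested. The Sult2a sum moves to the left with age and reaches -7.42 at W4, where Sult1e1 stands at 3.26 and Sult1c2 at 1.32.

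For comparison with the whole table, the share of all genes called at an adjusted p under 0.05 was small at P1 and large at W4. At P1 0 of the 9 genes that passed the filter were called (6 had an unadjusted p under 0.05, limma), where 0.0939% of all genes were called lower and 0.0738% higher. At W1 4 were called lower, beside 1.59% of all genes called lower and 3.24% called higher. At W2 5 were called lower and 1 higher, beside 4.49 and 24.6% of all genes, and at W4 5 were called lower and 2 higher, beside 12.4 and 46.9%. Nothing is read from these counts, since the genes were selected on these contrasts. Of all genes called, 84.6% were higher at W2 and 79.1% at W4, and scaling to nuclear genes moved these shares to 41.6 and 81.3%, median-of-ratios rescaling to 49.0 and 52.9%. At P1 and W1 the shares were 44.0 and 67.1%, and scaling to nuclear genes moved them to 76.9 and 79.7%, median-of-ratios rescaling to 53.3 and 50.4%. From P1 to W4 2 of the 9 were called higher and 3 lower in cKO, beside 31.7 and 25.4% of all genes, and 2 were called higher and 3 lower in Control, beside 12.4 and 42.1%.

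Summed over the 10 genes, sulfotransferase transcripts were lower in cKO at each age. The sum was 161 and 236 FPKM in cKO against 383 and 356 FPKM in Control at P1, and 273 and 245 FPKM in cKO against 410 and 567 FPKM in Control at W1. It was 300 and 327 FPKM in cKO against 501 and 618 FPKM in Control at W2, and 241 and 298 FPKM in cKO against 611 and 608 FPKM in Control at W4. Each cKO library was below each Control library of its age.

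**Figure D4:**
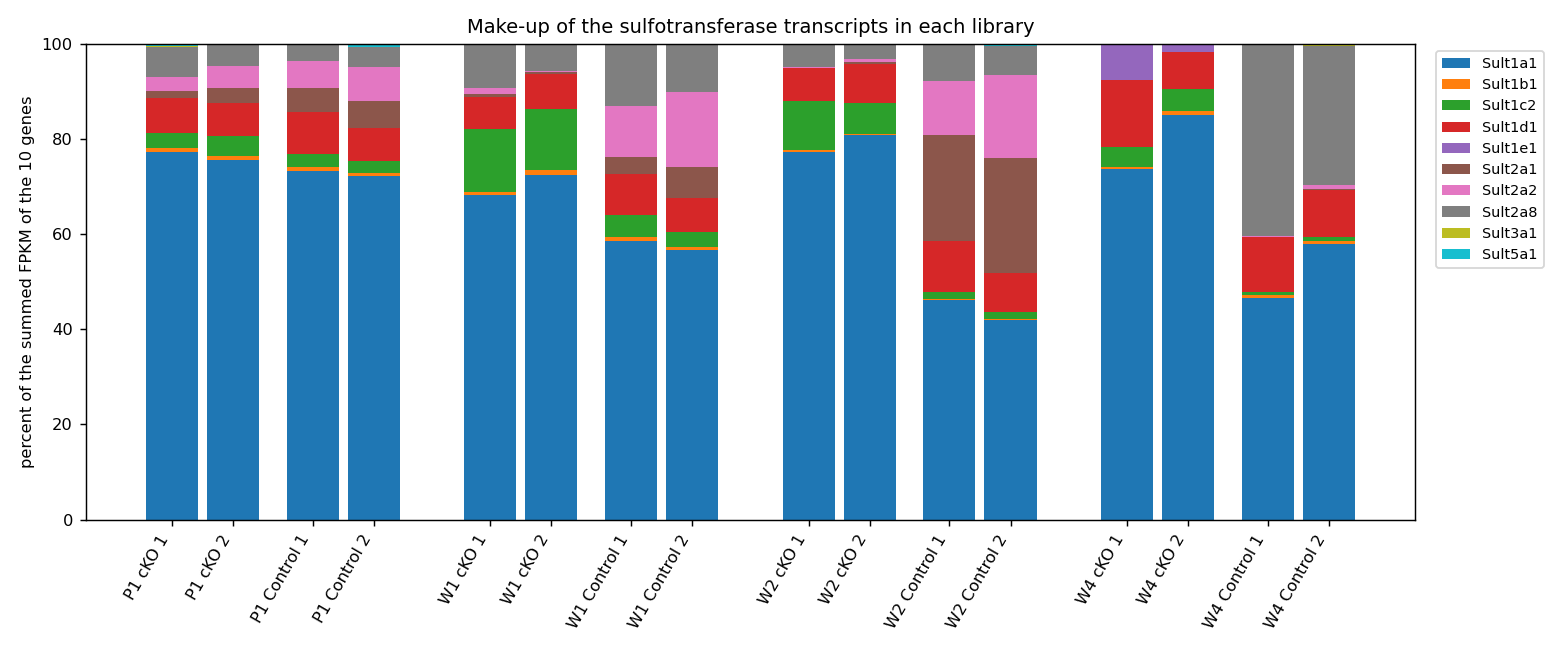
Stacked bars give the percent of the summed FPKM of the 10 genes that each gene held in each library, cKO left of Control at each age. Sult1a1 fills 68.2 to 85.1% of the cKO bars, Sult2a1 and Sult2a2 are wide in the W2 Control bars, and Sult2a8 fills 40.2 and 29.4% of the W4 Control bars.

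Markers of several cell types differed with genotype at W2 and W4, beside the differences above. Of all genes 24.6% were called higher and 4.49% lower at W2, and 46.9% higher and 12.4% lower at W4. At W2 4 of 6 cholangiocyte and 5 of 11 hepatocyte genes were called higher (2 and 3 after median-of-ratios rescaling), and 4 of 7 lymphocyte genes were called lower (6 after that rescaling). The summed FPKM at W2 was 86.6 and 62.97 in cKO against 31.6 and 36.0 in Control for the cholangiocyte list, and 109500 and 82210 in cKO against 52330 and 50740 in Control for the hepatocyte list. For the lymphocyte list it was 25.8 and 15.95 in W2 cKO against 45.2 and 46.6 in W2 Control. At W4 the summed FPKM of 8 cholangiocyte genes was 279.6 and 181 in W4 cKO against 16.7 and 17.97 in W4 Control. That of 8 stellate cell genes was 409.5 and 274 in W4 cKO against 45.9 and 50.4 in W4 Control. That of 8 Kupffer cell genes was 320.0 and 301 in W4 cKO against 98.8 and 71.8 in W4 Control, and that of 8 endothelial genes was 164 and 178 in W4 cKO against 55.1 and 53.2 in W4 Control. All 6 tested cholangiocyte genes and all 8 stellate, 8 Kupffer and 8 endothelial genes were called higher at W4, and after median-of-ratios rescaling 6, 8, 6 and 7 were. The cholangiocyte marker Cftr was listed at 0 in both W4 Control libraries. Sox9, of the same list, had a mean of 3.2 FPKM in W4 cKO and of 0.632 FPKM or less in every other group. Its call at W4 is therefore a description. Of 11 hepatocyte genes 2 were called higher and 4 lower at W4, with a median of -0.41, and 1 higher and 6 lower with a median of -1.01 after median-of-ratios rescaling. Their summed FPKM was 55660 and 56650 in W4 cKO against 84700 and 68860 in W4 Control. At W2 1 of 8 stellate, 1 of 8 Kupffer and 1 of 8 endothelial genes were called higher. Of 8 erythroid genes 1 was called lower at W2 and 3 at W4. Of 8 neutrophil genes 1 was called lower at W2 and 0 at W4, and 2 of 7 lymphocyte genes were called higher at W4. The part of these cells in the Sult values was not tested.

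Genes that supply sulfate and PAPS did not move in 1 direction. Of 15 tested, 1 was called higher and 1 lower at W1, and 8 higher and 1 lower at W2. At W4 6 were called higher and 4 lower. Of all genes 3.24, 24.6 and 46.9% were called higher and 1.59, 4.49 and 12.4% lower at W1, W2 and W4. The median log2 difference of the list was 0.36, 0.93 and 0.33 against 0.07, 0.22 and 0.44 over all genes. With a term for sex 0 were called at W1 (3 had an unadjusted p under 0.05, limma). Papss1, a PAPS synthase, stood at 8.30 and 8.56 FPKM in W4 cKO against 2.19 and 2.11 FPKM in W4 Control (log2 difference 1.58, adjusted p = 1.31e-05 by limma). Papss2, also a PAPS synthase, had a mean of 27.3 FPKM in W4 cKO and 29.0 FPKM in W4 Control (log2 difference -0.07, not called). At W2 Papss2 was called lower (-0.57, adjusted p = 0.0334 by limma). The sulfate transporter Slc26a1 was higher at W2 (1.54, adjusted p = 6.48e-05) and lower at W4 (-1.26, adjusted p = 2.94e-05), and the sulfate transporter Slc26a2 was higher at W4 (0.98, adjusted p = 7.82e-05). Mpst, a sulfurtransferase of cysteine breakdown, was higher at W2 (1.98, adjusted p = 0.000155) and lower at W4 (-0.87, adjusted p = 0.0067). After median-of-ratios rescaling the counts were 7 higher and 2 lower at W2, and 4 higher and 6 lower at W4, where the median turned to -0.25.

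Enzymes of the Golgi that put sulfate on proteins and glycans, and sulfatases, which remove it, were counted in the same way, and their W4 counts are to be read against the 46.9% of all genes called higher and the 12.4% called lower. Of 14 Golgi sulfotransferases 7 were called higher and 1 lower at W2 and 8 higher at W4, with a median of 0.89 at W4 against 0.44 over all genes. Of 11 sulfatases and their activating factors 5 were called higher at W2 and 8 at W4, with a median of 1.05 at W4. At W2 24.6% of all genes were called higher. After median-of-ratios rescaling 8 of the Golgi enzymes were called higher at W4, and 6 sulfatases were higher and 1 lower, with medians of 0.57 and 0.65 against 0.03 over all genes. Nothing particular to these lists is read from the counts.

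A further list held 18 tested receptors and transcription factors known for sulfotransferase genes or for sex-biased liver genes. Of these 2 were called lower at W1, 3 higher and 3 lower at W2, and 2 higher and 7 lower at W4. Of all genes 1.59% were called lower at W1, 24.6% higher and 4.49% lower at W2, and 46.9% higher and 12.4% lower at W4. Nr1i3, which encodes CAR, stood at 36.5 and 17.0 FPKM in cKO against 132 and 193 FPKM in Control at W1, and at 2.28 and 9.60 FPKM in cKO against 171 and 202 FPKM in Control at W4. It was lower at W1, W2 and W4, with log2 differences of -2.63, -3.00 and -4.99 (adjusted p = 0.00691, 0.000588 and 2.7e-06 by limma). With a term for sex the W1 difference was -2.71 and was no longer called (adjusted p = 0.372). Nr1h4 (FXR) fell by 1.86 at W4 (adjusted p = 3.31e-06) and Nr0b2 (SHP, an FXR target) fell by 3.95 at W4 (adjusted p = 9.12e-05). Esr1, the oestrogen receptor, was lower at W1 and W2, with log2 differences of -1.49 and -1.45 (adjusted p = 6e-04 and 0.000123), and at W1 it was still called with a term for sex (adjusted p = 0.0392). After median-of-ratios rescaling 6 of the 18 were lower at W2 and 1 higher and 12 lower at W4.

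**Figure D5:**
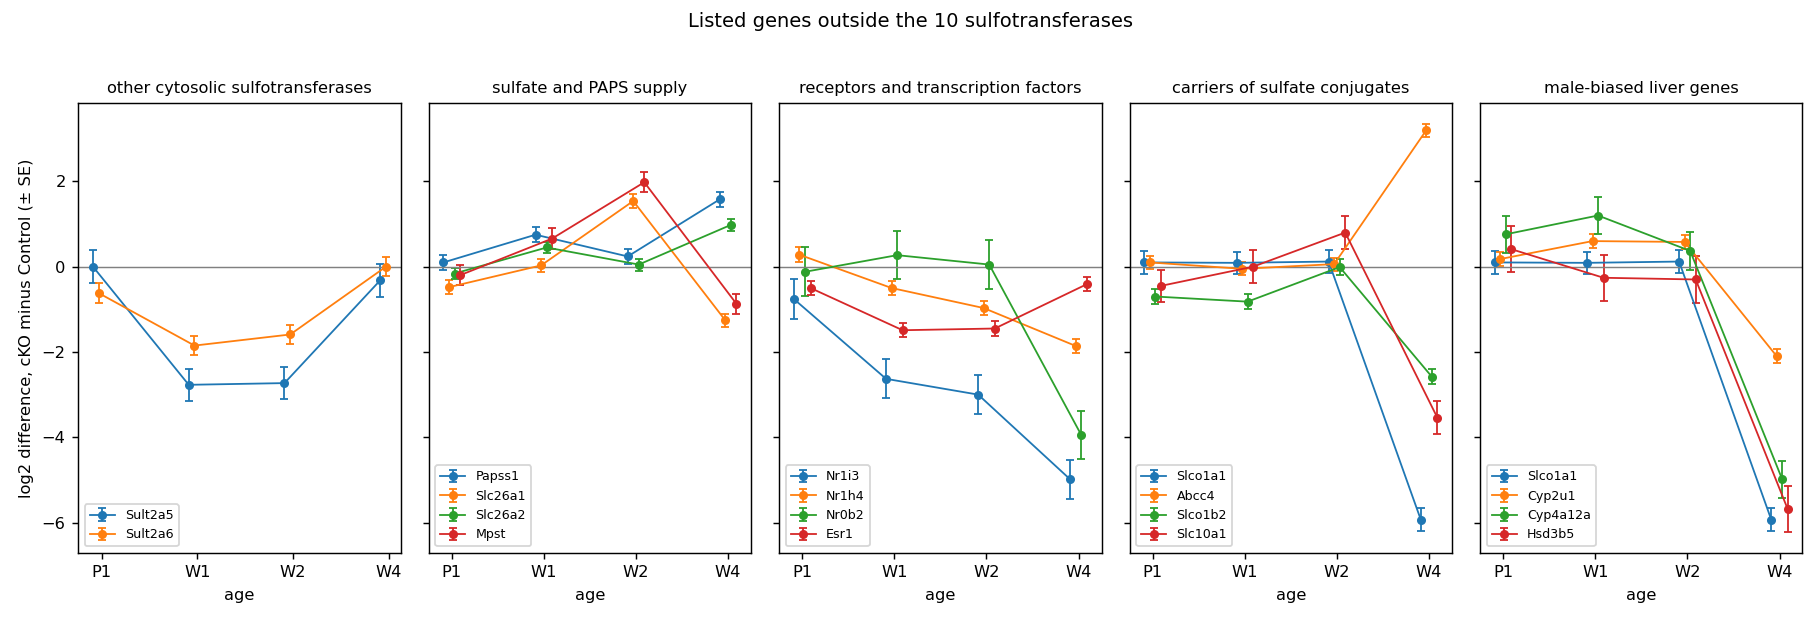
Points give the log2(FPKM + 1) difference, cKO minus Control, with the SE as a bar, at the 4 ages for listed genes outside the group of 10. Sult2a5 and Sult2a6 are lowest at W1 and W2, Nr1i3 reaches -4.99 at W4, and Slco1a1 stands at -5.93 at W4 with differences of 0.09 to 0.12 at the ages before.

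Carriers of sulfate conjugates changed in both directions at W4, the age with the most calls over all genes too (46.9% higher and 12.4% lower). Of 11 tested, 3 were called lower at W1, and 2 higher and 2 lower at W2. Of all genes 1.59% were called lower at W1, and 24.6% higher and 4.49% lower at W2. At W4 4 carriers were called higher and 6 lower (3 higher and 7 lower after median-of-ratios rescaling). With a term for sex 0 were called at W1 (3 had an unadjusted p under 0.05, limma). Slco1a1, an uptake carrier of organic anions, stood at 0.0512 and 0.0476 FPKM in W4 cKO against 92.0 and 43.1 FPKM in W4 Control. It fell by 5.93 on the log2 scale (adjusted p = 1.75e-08), but passed the filter only through the W4 Control libraries. This adjusted p is therefore a description. Slc10a6, called higher at W4, had a mean of 2.29 FPKM in W4 cKO and of 0.363 FPKM or less in every other group. It passed the filter only through the W4 cKO libraries, so that its place in the W4 count is a description too. Slco1b2 and the bile acid carrier Slc10a1 were lower at W4, with log2 differences of -2.58 and -3.54 (adjusted p = 4.59e-07 and 9.08e-06). The export pump Abcc4 was higher by 3.20 (adjusted p = 2.87e-08), with 11.7 and 9.85 FPKM in cKO against 0.188 and 0.363 FPKM in Control.

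Genes known to be male-biased in the adult liver were lower in W4 cKO as a group, and Slco1a1, with the limit given above, is also one of them. Of 10 tested, 9 were called lower at W4, and 9 after each rescaling, beside 12.4% of all genes on the deposited scale. The median was -3.49 against 0.44 over all genes. Elovl3 had a mean of 32.2 FPKM in W4 Control and of 0.226 FPKM or less in every other group. It too passed the filter only through W4 Control, so the calls of Slco1a1 and Elovl3 within these counts are a description. Hsd3b5, Cyp4a12a and Cyp2u1 had log2 differences of -5.69, -4.99 and -2.1 at W4 (adjusted p = 3.35e-06, 2.22e-06 and 1.19e-06). In Control all 10 were called higher at W4 than at P1, beside 12.4% of all genes. The W4 Control libraries are those in which Sult2a8 reached 245 and 179 FPKM. Of 11 female-biased genes other than Sult genes, 2 were called higher and 1 lower at W4, beside 46.9 and 12.4% of all genes. Among them Cyp2b10 had a mean of 7.05 FPKM in W4 cKO and of 0.633 FPKM or less in every other group. Its call at W4 is therefore a description. At W2 1 was called higher and 3 lower (0 and 4 after each rescaling), beside 24.6 and 4.49% of all genes. W2 was the age at which Sult2a1 and Sult2a2 were highest in Control.

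Genes outside the group with the most similar course over the 16 libraries were listed by Pearson r of log2(FPKM + 1), among 6939 genes with a mean of at least 5 FPKM. These libraries form 8 groups and all values of a library share its depth and scale, so that r is a description. The Sult2a sum was most like Nr1i3 (r = 0.964), the kynurenine formamidase Afmid (0.958), the urocanate hydratase Uroc1 (0.953), Asap3 (0.949) and Sardhos (0.946). Sult2a8 was most like Il1rap (0.988) and the tryptophan catabolic gene Haao (0.964). For Sult2a1 these were the cytochrome P450 Cyp2b9 (0.846) and Trim24 (0.844), and for Sult2a2 Cnst (0.895) and Cyp2b9 (0.883).

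The Sult1 genes had other partners. Sult1e1 was closest to Pvr (r = 0.956) and Kidins220 (0.946), both of which were highest in the W4 cKO libraries, at 20.05 and 12.8 FPKM for Pvr and 15.4 and 12.3 FPKM for Kidins220. Sult1c2 was closest to Fam89a (0.899) and Tmem53 (0.894), Sult1d1 to Cyp2d40 (0.883) and Nampt (0.881), and Sult1a1 to Car5a (0.846) and the serine dehydratase Sds (0.821). Sult1b1 was closest to BC004004 (0.864) and Crp (0.839), and Sult5a1 to Paxx (0.893) and Smim10l1 (0.875). Among the 9 genes themselves, the highest r was that of Sult2a1 with Sult2a2 (0.96), followed by Sult1a1 with Sult1d1 (0.75), and the lowest was that of Sult2a8 with Sult1e1 (-0.72).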

How the data were processed

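RNA-sequencing of 16 livers (Mettl3 cKO and Control, 4 ages, 2 libraries per group) was analysed from the table deposited by the authors, which holds FPKM per gene and library. Per the labels and methods, reads were aligned by the authors to mm10 with HISAT2 and their own comparisons used DESeq2. How genes were counted, and on which annotation, is stated in no source used here. Of the value columns, all 16 matched a sample and 0 did not. Groups were taken from age, genotype and replicate in the labels.

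The 14913 genes that reached 1 FPKM in 2 or more libraries were fitted with limma 3.58.1 (R 4.3.3) on log2(FPKM + 1), with 1 coefficient per group, a trend in the variance and Benjamini-Hochberg adjustment over all genes, and were called at an adjusted p under 0.05. Differences understate the change of low genes. The Sult2a sum was fitted as an added row. Because the file gives FPKM, the fit planned for FPKM was used and not that planned for counts. The dependence on age was a joint F test. The members and lists were chosen with earlier results of these data known. Named genes are the 10 members, every Sult gene that passed the filter and up to 4 genes of a list with the smallest adjusted p at any age, printed for 5 of the lists. Papss2 is named in addition, as a PAPS synthase beside Papss1. Similar genes are the 5 (Sult2a sum) or 2 of highest r, without predicted genes.

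Reads per gene were recovered from FPKM, GENCODE M21 lengths and the depth at which low values become whole. In genes of 1 transcript 98.9 to 99.2% of low values were then within 0.05 of a whole read. Reads are approximate, and PCR copies are not separate molecules. Libraries within a group may share more than genotype and age, and p-values measure the spread between these libraries. Reads of near-identical copies can be split. The alternatives were no filter, 0.1 FPKM added, median-of-ratios rescaling, scaling to nuclear genes, a term for sex, each library left out, a replicate block, each age alone, other Sult2a sums and the age test without W1.

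Replicate numbers are shared by the groups. The differences between replicates 1 and 2 of cKO and of Control correlated across genes with r = 0.02, 0.13, 0.02 and 0.09 at P1, W1, W2 and W4, and the numbers were not taken to pair the livers.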

Additional observations from a re-analysis of the deposited data

Results flagged for a closer look

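By the joint F test in limma over the 4 ages, the difference between cKO and Control depended on age for 17 named genes outside the 10 sulfotransferases. It did so for 49.5% of all genes tested. Apart from Sult2a5 and Sult2a6, these genes were named by their smallest adjusted p at any age in these libraries. All are listed because this test called them, so nothing is read from their number. The adjusted p was 0.00156 for Sult2a5 and 0.00207 for Sult2a6. Among the genes of sulfate and PAPS supply it was 0.00213 for Papss1, 2.79e-05 for Slc26a1, 0.0027 for Slc26a2 and 0.00026 for Mpst. Slc26a1 and Mpst were called higher at W2 and lower at W4. For the receptor genes it was 0.00199 for Nr1i3, 0.000295 for Nr1h4, 0.00307 for Nr0b2 and 0.00291 for Esr1. For the carriers it was 2.2e-06 for Slco1a1, 4e-06 for Abcc4, 0.000109 for Slco1b2 and 0.000351 for Slc10a1. For the male-biased genes it was 2.82e-05 for Cyp2u1, 6.28e-05 for Cyp4a12a and 0.000239 for Hsd3b5. Sult2a5, Sult2a6 and Slco1a1 passed the filter through Control libraries, so that their adjusted p is a description. Groups of 2 libraries were too small for a search for single libraries that stand apart.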

How the results depend on the processing

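The Sult2a sum kept its direction at every age under every alternative tried. With 0.1 FPKM added it was -9.29 at W4, and at W2 it was -4.43 after median-of-ratios rescaling and -4.52 with scaling to nuclear genes. The sum of Sult2a1 and Sult2a2 alone gave -1.83, -4.66, -6.27 and -1.32 at P1, W1, W2 and W4, where Sult2a8 is left out by construction. With each library left out in turn the Sult2a sum ran from -1.68 to -0.96 at P1, from -3.15 to -2.22 at W1, from -4.28 to -3.76 at W2 and from -7.62 to -7.21 at W4. Of the 9 sulfotransferases, 3 to 4 were then called lower at W1, 4 to 5 at W2 and 3 to 6 at W4, with 3 without W4 cKO replicate 1. Without either W4 cKO library Sult1e1 no longer passed the filter. With a term for sex 0 of the 9 were called lower at W1 by limma (4 had an unadjusted p under 0.05), where 8 genes of the whole table were called lower and 10 higher, against 237 and 483 without it, and where sex could be estimated only from P1 Control. Sult1b1 at W1 was then 0.17 and Sult5a1, W4 minus P1 in cKO, 0.31. On leaving out P1 libraries, Sult1c2 at P1 ran from -0.77 to 0.10 (0.10 without P1 cKO replicate 1), and Sult5a1, W4 minus P1 in Control, from -0.09 to 0.67 (-0.09 without P1 Control replicate 1). The cause of these changes was not tested. Median-of-ratios rescaling gave 2115 genes higher and 2202 lower at W2 and 4002 higher and 3559 lower at W4, against 3675 and 669, and 6988 and 1844, on the deposited scale. Scaling to nuclear genes gave 1622 higher and 2276 lower at W2, 764 higher at W1, and 30 higher and 9 lower at P1. Without a filter 47 were higher and 51 lower at P1, against 11 and 14. With each age fitted alone 2228 were higher and 375 lower at W2, and 0 higher and 1 lower at P1. With 1 library left out, 1 to 14 were higher and 1 to 18 lower at P1, 121 to 526 higher and 87 to 246 lower at W1, and 1743 to 3984 higher and 346 to 697 lower at W2. With a replicate block the Sult2a sum was -1.32, -2.68, -4.02 and -7.42, and 6633 genes had an age-dependent effect against 7389. With the block 296 genes were called higher at W1, against 483, and 3 higher and 4 lower at P1. A block by number is a check only, since the numbers did not pair the livers. Depth limits genes at a few reads, among them Sult3a1, Sult1e1 before W4 and Sult2a1 and Sult2a2 at W4.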
